A study of Rattus norvegicus with 15 samples.

Results

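The chaperonin genes are the 10 rat genes that encode the barrel-shaped folding machines of the mitochondrion and the cytosol. They are Hspd1 (HSP60) and Hspe1 (HSP10) of the mitochondrial chaperonin, and Tcp1, Cct2, Cct3, Cct4, Cct5, Cct6a, Cct7 and Cct8 of the cytosolic chaperonin TRiC (also called CCT). They were chosen by gene name, with earlier results of these data already known, which included a heat shock list. They make up 10 of the 37367 genes in the expression table. Their values were summed from 25 of its 85322 transcripts, and all 10 passed the filter on low values (a mean of at least 0.5 FPKM over the 15 libraries), as did 17895 genes in all.

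RNA was sequenced from primary brain microvascular endothelial cells (BMECs), cultured from cerebral microvessels of Spraque-Dawley rats (spelled as in the labels), littermates of mixed sex aged 2 to 3 weeks. There were 5 groups of 3 libraries, described as biological replicates: unexposed control cells, labelled as cultured for 12 h, and cells collected 12 h or 24 h after x-ray exposure to 5 Gy or to 20 Gy. Controls otherwise received the same handling. No unexposed culture at 24 h was analysed here, so time after exposure and time in culture cannot be told apart, and which animals gave which culture is not given in the sources used here. The values are FPKM (fragments per kilobase of transcript, scaled to the mapped fragments of the library), from 5.44 to 7.49 gigabases of aligned sequence per library.

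The endothelial label was not borne out by its markers. Of 12 endothelial marker genes 11 were in the table, 8 of these had a mean under 0.5 FPKM, and their summed level was 3.79 to 8.54 FPKM in any library. Tie1 and Emcn were at 0 in every library, and Cldn5 was at most 0.0328 FPKM. All 8 fibroblast markers were expressed, with a summed level of 4198 to 4573 FPKM in control libraries, 2350 to 4033 FPKM in the 5 Gy group and 3156 to 3990 FPKM in the 20 Gy group at 12 h, and 1283 to 2206 FPKM and 917 to 1702 FPKM in the same order of dose at 24 h. Pericyte markers, 3 of 8 with a mean under 0.5 FPKM, summed to 154 to 161 FPKM in controls and to 50.6 to 89.1 FPKM over the 24 h libraries. Astrocyte markers, 2 of 6 with a mean under 0.5 FPKM, summed to 515 to 762 FPKM in controls. Their sum was 628 to 1176 and 467 to 676 FPKM at 12 h and 374 to 436 and 323 to 397 FPKM at 24 h after 5 Gy and 20 Gy. Of the 4 tested, 1 was called higher and 1 lower at 24 h after either dose. Neuron, oligodendrocyte and microglia markers summed to at most 12.9, 1.22 and 0.301 FPKM in any library. The fibroblast, pericyte and astrocyte sums fell together with the 24 h changes described below, and their part in the results was not tested. In these bulk samples, fewer cells of a type and less RNA per cell cannot be told apart.

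HSP60 is a relative of bacterial GroEL. It forms rings in the mitochondrial matrix that take up unfolded proteins, with HSP10 as the lid, and their genes lie head to head and share a promoter region. TRiC is a double ring in which each ring holds 1 copy of each of its 8 different subunits, and it folds actin, tubulin and many other cytosolic proteins. HSP60 and HSP10 are classical targets of heat shock factor 1 (HSF1), a transcription factor that binds repeated, alternately inverted GAA units.

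The promoter sequences show where the members differ in such units. In the RefSeq promoter table (build GRCr8, 250 bases before to 50 bases after each start), both strands were searched for alternating units, with 2 units spelled TTCNNGAA or GAANNTTC, 3 units TTCNNGAANNTTC or GAANNTTCNNGAA, and 4 units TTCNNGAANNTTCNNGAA or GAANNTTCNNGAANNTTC. A longer match holds the shorter ones within it. Each sequence below is 30 bases on its gene's strand, 5′ to 3′, with the match in capitals.
Hspd1: ggggccTTCCGGAAGGTTCTAGAAccgagc
Hspe1: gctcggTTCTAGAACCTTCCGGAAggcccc
Cct4: gcgtcgctTTCTGGAAGGTTCgtggaggcg
Cct5: atagcggcggcTTCCAGAAggtactctgtg
Cct6a: gcgtaagacttTTCGAGAAgacccgcatag

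The Hspd1 and Hspe1 sequences are the same interval, chr9:64084256-64084285, read on opposite strands, the minus strand for Hspd1 and the plus strand for Hspe1. It holds 4 units, at -242 to -225 from the Hspd1 start and at -65 to -48 from the Hspe1 start, and the promoter windows of the 2 genes share 211 bases. The Cct4 match has 3 units and lies at 26 to 38 after its start (chr14:101193074-101193103, plus strand). Cct5 (chr2:84313925-84313954, minus strand) and Cct6a (chr12:32519094-32519123, minus strand) each hold 2 units, at -170 to -163 and at -40 to -33. In the windows of Tcp1, Cct2, Cct3, Cct7 and Cct8 these letters were not found. Of 33469 promoters in the table, 15.85% held at least 2 units, 0.798% at least 3 and 0.0478% held 4. The member counts were 5 of 10 with at least 2 units and 3 of 10 with at least 3, of which Hspd1 and Hspe1 share 1 match. Of 7 heat shock genes searched in the same way, 5 held at least 2 units and 2 at least 3. Hspa1b, Hsp90aa1 and Hsf1 had no promoter sequence there and were not searched, so these 7 differ in part from the heat shock genes tested for expression. No match was found for Hspa1a and Hsp90ab1, which are heat shock genes too. Binding of HSF1 to any of these promoters was not tested.

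Hspd1, the ring subunit of the mitochondrial chaperonin, was higher at 24 h after either dose and showed the largest change of the 10 genes in each comparison with control at 24 h. Its level was 53.8, 54.9 and 80.9 FPKM in the 3 control libraries. It was 45.7, 62.0 and 49.4 FPKM at 12 h after 5 Gy, and 47.6, 46.3 and 45.7 FPKM at 12 h after 20 Gy. At 24 h it was 284, 289 and 224 FPKM after 5 Gy and 624, 578 and 442 FPKM after 20 Gy. The 24 h libraries did not overlap with any control or 12 h library, nor did those of the 2 doses overlap with each other. On the log2(FPKM + 1) scale, on which all fold changes here were computed, Hspd1 rose by 2.07 at 24 h after 5 Gy (SE 0.17, 4.20-fold, adjusted p = 6.02e-07) and by 3.11 at 24 h after 20 Gy (SE 0.17, 8.62-fold, adjusted p = 2.19e-08). At 12 h it did not pass the test, with log2 changes of -0.25 after 5 Gy (adjusted p = 0.355) and -0.41 after 20 Gy (adjusted p = 0.135). All adjusted p-values are two-sided, from limma over all 17895 genes, and a gene was called changed at an adjusted p under 0.05 with a fold of at least 1.5.

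Hspe1, the lid subunit, moved less. Its level was 88.6, 85.7 and 98.7 FPKM in controls, 89.0, 88.8 and 102 FPKM at 12 h after 5 Gy, and 85.0, 83.3 and 74.3 FPKM at 12 h after 20 Gy. It was 128, 136 and 132 FPKM at 24 h after 5 Gy and 216, 160 and 177 FPKM at 24 h after 20 Gy. Every 24 h library was above every control and 12 h library, and at 24 h the 20 Gy libraries were all above the 5 Gy libraries. Hspe1 rose by 1.00 on the log2 scale at 24 h after 20 Gy (SE 0.10, 2.00-fold, adjusted p = 4.13e-06). The difference at 24 h after 5 Gy was 0.53 on the log2 scale (1.45-fold, adjusted p = 0.000723), short of the 1.5-fold limit. It passed without control replicate 3 (0.59), with quantile normalization (0.81, adjusted p = 3.85e-05) and as TPM (0.69, adjusted p = 9.06e-05).

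**Figure D1:**
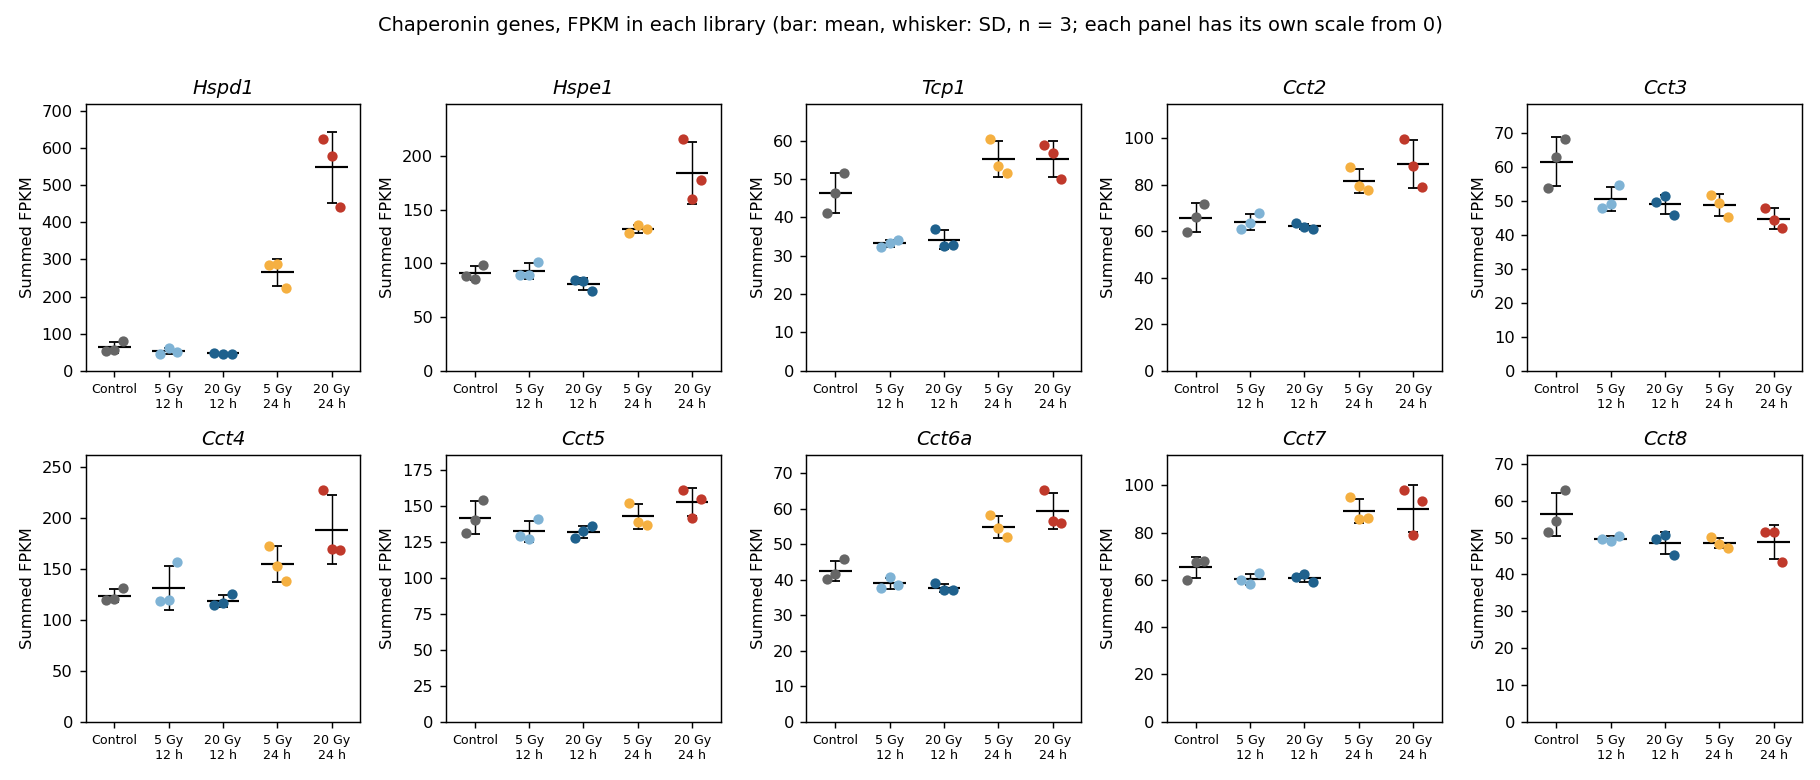
Level of each chaperonin gene (vertical axis, FPKM summed over its transcripts, from 0 and with its own scale in each panel) in the 5 groups (horizontal axis). Points are single libraries, the bar is the group mean and the whisker 1 SD (n = 3). The 24 h libraries of Hspd1, Hspe1, Cct2, Cct6a and Cct7 stand above all other libraries. Cct3 and Cct8 sit below their controls at 24 h, and Cct8 does so at 12 h too.

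The 8 TRiC subunits had smaller log2 differences from control at 24 h than Hspd1 and Hspe1, and not all of the same sign. At 24 h, 4 of the 8 were higher in all libraries than in all controls and 2 were lower in all libraries, after either dose. The share of all genes separated from controls in this way was not counted, so these counts have no background beside them. Their summed level was 557, 600 and 653 FPKM in controls, 535, 541 and 606 FPKM at 12 h after 5 Gy, and 541, 545 and 542 FPKM at 12 h after 20 Gy. At 24 h it was 728, 663 and 635 FPKM after 5 Gy and 809, 687 and 688 FPKM after 20 Gy. The 5 Gy libraries at 24 h overlapped with the controls, and the 20 Gy libraries at 24 h were all above them.

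Tcp1, the founding TRiC subunit (also CCT1), was 41.1, 46.3 and 51.5 FPKM in controls, 32.1, 33.4 and 34.0 FPKM at 12 h after 5 Gy, and 37.0, 32.6 and 32.8 FPKM at 12 h after 20 Gy. It was 60.4, 53.5 and 51.5 FPKM at 24 h after 5 Gy and 58.8, 56.8 and 50.0 FPKM at 24 h after 20 Gy. All 12 h libraries were below all controls, while the 24 h libraries overlapped with the controls. The log2 differences at 12 h were -0.46 after 5 Gy (adjusted p = 0.00495) and -0.43 after 20 Gy (adjusted p = 0.00902), within the 1.5-fold limit. From 12 h to 24 h Tcp1 rose by 0.71 at 5 Gy (SE 0.10, adjusted p = 4.23e-05) and by 0.68 at 20 Gy (SE 0.10, adjusted p = 6.53e-05).

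Cct4, one of the 2 TRiC genes with the highest FPKM, was 119, 121 and 131 FPKM in controls, 118, 120 and 156 FPKM at 12 h after 5 Gy, and 114, 117 and 126 FPKM at 12 h after 20 Gy. It was 173, 153 and 138 FPKM at 24 h after 5 Gy and 227, 170 and 169 FPKM at 24 h after 20 Gy. All 24 h libraries were above all controls, and replicate 1 at 24 h after 20 Gy stood apart from the other two. At 24 h after 20 Gy the gene rose by 0.59 on the log2 scale against control (SE 0.13, 1.51-fold, adjusted p = 0.00198) and by 0.65 against 12 h (SE 0.13, 1.57-fold, adjusted p = 0.00116). The call against control sits at the fold limit. It was lost without control replicate 1 (0.57), without control replicate 2 (0.57) and without replicate 1 of the 20 Gy group at 24 h (0.45), and without that last library the change from 12 h was 0.51 and was also lost. The call against control was kept with quantile normalization (0.80), as TPM (0.68) and with libraries shifted to a common median (0.65). With quantile normalization Cct4 also passed at 24 h after 5 Gy (0.61, adjusted p = 0.00267).

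Cct6a was 40.3, 41.7 and 45.8 FPKM in controls, 37.6, 40.7 and 38.7 FPKM at 12 h after 5 Gy, and 39.1, 37.2 and 37.2 FPKM at 12 h after 20 Gy. It was 58.2, 54.5 and 52.1 FPKM at 24 h after 5 Gy and 65.3, 56.6 and 56.1 FPKM at 24 h after 20 Gy, above every other library. The log2 differences from control at 24 h were 0.36 after 5 Gy (adjusted p = 0.00125) and 0.47 after 20 Gy (adjusted p = 0.000178), within the fold limit, and from 12 h to 24 h at 20 Gy the summed level rose by 0.63 (SE 0.08, adjusted p = 1.76e-05). This rise depended on which transcripts were counted. The main annotated transcript, ENSRNOT00000001227, was 35.8 to 44.3 FPKM in the control and 12 h libraries and 20.8 to 44.5 FPKM at 24 h. An assembled model of 13 exons, in place of 14, was at 0 in all 9 control and 12 h libraries, and at 19.8, 26.0 and 0 FPKM at 24 h after 5 Gy and 23.3, 25.3 and 10.7 FPKM at 24 h after 20 Gy. For the main transcript alone, the log2 change from 12 h to 24 h at 20 Gy was -0.23, and for all annotated transcripts it was 0.05. Without replicate 1 of the 20 Gy group at 24 h the summed change was 0.56, under the fold limit.

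Cct2, Cct7 and Cct5 were not called in any comparison on the values as deposited. Cct7 was 60.1, 67.6 and 68.0 FPKM in controls, 60.0, 58.1 and 62.8 FPKM at 12 h after 5 Gy, 61.1, 62.3 and 58.9 FPKM at 12 h after 20 Gy, 95.0, 85.9 and 86.3 FPKM at 24 h after 5 Gy and 97.9, 78.7 and 93.4 FPKM at 24 h after 20 Gy. Its 24 h libraries were all above the others, with log2 differences from control of 0.44 (adjusted p = 0.000582) and 0.46 (adjusted p = 0.000505). Cct2 was 59.5 to 71.9 FPKM in controls, 60.8 to 67.8 FPKM at 12 h, 77.5 to 87.4 FPKM at 24 h after 5 Gy and 79.0 to 99.6 FPKM at 24 h after 20 Gy, with differences of 0.30 (adjusted p = 0.0122) and 0.42 (adjusted p = 0.00161) from control at 24 h. Both genes thus differed by an adjusted p under 0.05 at 24 h but by less than 1.5-fold. With quantile normalization Cct7 passed after both doses (0.67 and 0.66) and Cct2 after 20 Gy (0.63), and as TPM Cct7 passed after 5 Gy (0.60). Cct5, the TRiC gene with the highest FPKM in controls, was 131 to 154 FPKM in controls and 137 to 161 FPKM over the 24 h libraries. Its differences from control at 24 h were 0.01 after 5 Gy (95% interval -0.16 to 0.18) and 0.11 after 20 Gy (95% interval -0.06 to 0.28).

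Cct3 and Cct8 were the 2 TRiC genes with all libraries below all controls at 24 h. Cct3 was 53.6, 62.8 and 68.1 FPKM in controls, 47.8, 49.1 and 54.7 FPKM at 12 h after 5 Gy and 49.5, 51.5 and 45.9 FPKM at 12 h after 20 Gy. It was 51.7, 49.3 and 45.3 FPKM at 24 h after 5 Gy and 48.0, 44.3 and 41.9 FPKM at 24 h after 20 Gy. All 24 h libraries were below all controls, with log2 differences of -0.32 (adjusted p = 0.0102) and -0.45 (adjusted p = 0.00137), within the fold limit. For its main annotated transcript alone they were -0.69 and -0.68 and passed. Cct8 was 51.6 to 62.9 FPKM in controls, 45.3 to 50.7 FPKM at 12 h and 43.4 to 51.4 FPKM at 24 h. All exposed libraries were below all controls, with differences of -0.21 at 24 h after either dose that did not pass the test (adjusted p = 0.0542 and 0.0561). Under the 3 other scalings of the libraries that were tried, these differences at 24 h kept their sign but were in part smaller. With quantile normalization the Cct3 differences were -0.18 and -0.29 and those of Cct8 were -0.07 and -0.06, and with libraries rescaled to the same sum (TPM) they were -0.18 and -0.36 for Cct3 and -0.06 and -0.12 for Cct8. The adjusted p of Cct3 after 5 Gy reached 0.107 over the alternatives.

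**Figure D2:**
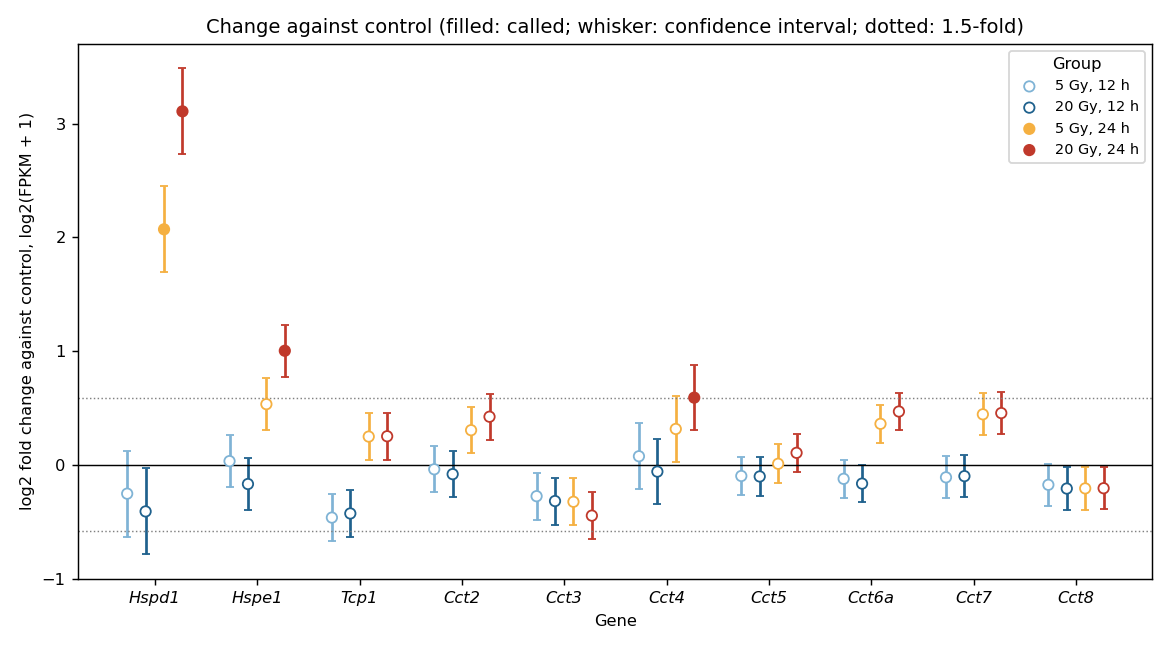
Log2 fold change against control of each chaperonin gene (vertical axis, log2(FPKM + 1) scale) in the 4 exposed groups (colours). Points are limma estimates, whiskers their 95% intervals, filled points passed the test and dotted lines mark 1.5-fold. Hspd1 at 3.11 and 2.07 and Hspe1 at 1.00 lie outside the dotted lines, and the Cct4 point at 0.59 lies on one.

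Counted over the 10 genes, none was called at 12 h against control after either dose. Among all genes, 4.98% were called higher and 4.96% lower at 12 h after 5 Gy, and 4.90% higher and 3.64% lower at 12 h after 20 Gy. With an adjusted p alone, Tcp1 passed in both comparisons and Cct3 after 20 Gy, both lower, beside 8.37% and 7.54% of all genes that were lower by that rule. At 24 h after 5 Gy, 1 of the 10 was called higher (Hspd1) and 0 lower, beside 20.5% higher and 20.8% lower among all genes. At 24 h after 20 Gy, 3 of the 10 were called higher (Hspd1, Hspe1 and Cct4) and 0 lower, beside 17.0% and 23.3%. These counts are near the background of all genes. With quantile normalization 4 and 6 of the 10 were called higher, beside 20.6% and 19.2% of all genes under the same scaling. The median log2 change of the 10 genes was 0.31 for 5 Gy and 0.44 for 20 Gy at 24 h, beside medians over all genes of -0.05 and -0.14. For the 8 TRiC genes it was 0.28 and 0.34. These comparisons share the same 3 control libraries.

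From 12 h to 24 h, 2 of the 10 were called higher at 5 Gy (Hspd1 and Tcp1), beside 17.1% higher and 19.3% lower among all genes. At 20 Gy, 5 of the 10 were called higher (Hspd1, Hspe1, Tcp1, Cct4 and Cct6a), beside 14.1% higher and 22.1% lower among all genes, and without replicate 1 of the 20 Gy group at 24 h the count was 3. With quantile normalization it was 7, beside 17.0% called higher among all genes. Hspd1 rose by 2.32 at 5 Gy (SE 0.17, adjusted p = 3.09e-07) and by 3.52 at 20 Gy (SE 0.17, adjusted p = 9.85e-09), and Hspe1 by 1.17 at 20 Gy (SE 0.10, adjusted p = 1.4e-06). At 5 Gy the Hspe1 difference was 0.50 (adjusted p = 0.00133), under the fold limit. No member was called lower in either comparison.

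The doses were compared directly at each time. At 12 h, 0 of the 10 genes differed between 20 Gy and 5 Gy, beside 0.117% called higher and 0.00559% called lower among all genes, and the members' log2 differences were -0.20 to 0.04. At 24 h, Hspd1 alone of the 10 was called, higher by 1.04 after 20 Gy (SE 0.17, 2.05-fold, adjusted p = 0.00653), beside 0.956% higher and 1.46% lower among all genes. In a fit of only those 2 groups the same difference had an adjusted p of 0.0702, and over all the alternatives tried the adjusted p ran from 0.000593 to 0.594. Hspe1 was higher in all 20 Gy libraries by 0.47 (adjusted p = 0.0247), under the fold limit. The 8 TRiC genes had log2 differences of -0.12 to 0.28 between the doses at 24 h, and none passed (adjusted p from 0.274 for Cct4 to 0.998 for Cct8). Whether the change over time differed between the doses was tested as an interaction, which none of the 10 passed. The interaction was 1.19 for Hspd1 (95% interval 0.66 to 1.73, adjusted p = 0.0559), 0.67 for Hspe1 (95% interval 0.35 to 0.99, adjusted p = 0.0663) and 0.41 for Cct4 (95% interval 0.00 to 0.82, adjusted p = 0.385). It passed for Hspd1 without control replicate 3 (adjusted p = 0.0326) and without replicate 3 of the 20 Gy group at 24 h (1.34, adjusted p = 0.0238), and for Hspe1 without replicate 2 of the 20 Gy group at 24 h (0.77, adjusted p = 0.0403).

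Hspd1 rose more than Hspe1, and the ratio of the 2 transcripts crossed 1 between 12 h and 24 h. These ratios are described here without a test. Hspe1 over Hspd1, per kilobase, was 1.65, 1.56 and 1.22 in controls and 1.43 to 2.06 at 12 h. At 24 h it was 0.451, 0.471 and 0.588 after 5 Gy and 0.346, 0.277 and 0.401 after 20 Gy. The lid transcript was thus above the ring transcript in every control and 12 h library and below it in every 24 h library. The mean of Hspd1 and Hspe1 over the mean of the 8 TRiC genes was 1.02 ± 0.08 in controls (SD, n = 3), 1.04 ± 0.07 in the 5 Gy group at 12 h and 0.939 ± 0.049 in the 20 Gy group at 12 h. At 24 h it was 2.36 ± 0.18 with 5 Gy and 4.02 ± 0.37 with 20 Gy. The mitochondrial and cytosolic chaperonin genes were near equal per kilobase and per gene in the first 3 groups, and the libraries of the 24 h groups overlapped neither with these nor with each other.

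**Figure D3:**
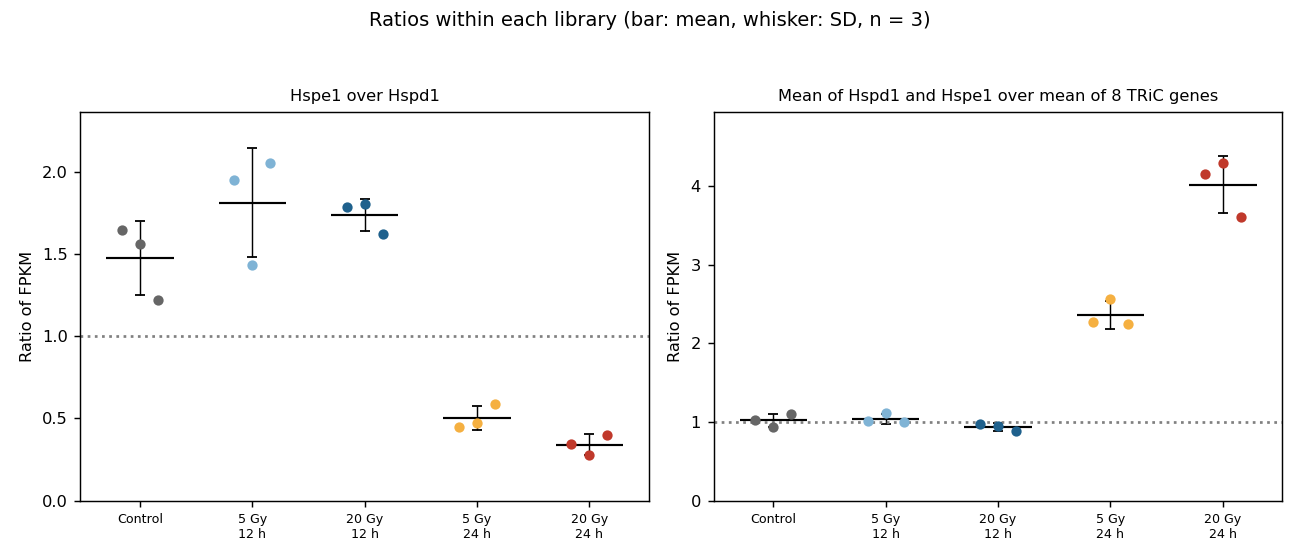
Ratios of FPKM within each library by group, with Hspe1 over Hspd1 on the left and the mean of Hspd1 and Hspe1 over the mean of the 8 TRiC genes on the right (points are libraries, bars means, whiskers SD, n = 3, dotted line equal levels). The left ratio is above 1 in controls and at 12 h and 0.277 to 0.588 at 24 h, and the right ratio is near 1 and then 2.24 to 4.29.

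Within TRiC, whose subunits occur in equal copies in the ring, the transcripts were not equal. In controls Cct5 made up 23.5% and Cct4 20.5% of the summed TRiC FPKM, Cct2, Cct7, Cct3 and Cct8 9.3% to 10.9% each, Tcp1 7.7% and Cct6a 7.1%. Within each control library the order was Cct5, Cct4, then Cct2, Cct7 and Cct3, then Cct8, Tcp1 and Cct6a. Cct2 was above Cct3 in all 3 control libraries, while the places of Cct2 and Cct7, and of Cct7 and Cct3, changed between libraries. At 24 h Cct4 exceeded Cct5 within each of the 6 libraries, by little in replicate 3 after 5 Gy (138 and 137 FPKM). Cct4 was above Cct5 in replicate 3 at 12 h after 5 Gy too (156 and 141 FPKM). It made up 25.8% of the sum at 24 h after 20 Gy, beside 21.0% for Cct5. Over the same groups the shares of Cct3 and Cct8 went from 10.2% and 9.3% in controls to 6.2% and 6.7% at 24 h after 20 Gy. The subunit with the highest level was 3.26 to 3.37 times the lowest in controls, 3.45 to 4.59 times at 12 h, 3.05 to 3.45 times at 24 h after 5 Gy and 3.83 to 4.73 times at 24 h after 20 Gy.

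The transcript models behind Hspd1 and Hspe1 touch their values. In the files' build, Rnor_6.0, Hspd1 lies at chr9:61680530-61692116 on the minus strand and Hspe1 at chr9:61691332-61694599 on the plus strand. The Hspd1 sum holds the annotated transcript ENSRNOT00000066589 (12 exons, 2227 bases) and an assembled model of 12 exons and 3177 bases that reaches past the annotated start. The longer model overlaps the Hspe1 model by 785 bases, while 375 bases lie between the annotated Hspd1 transcript and Hspe1, and since the strand of the libraries is not given in the sources used here, reads of the 2 genes in the overlap cannot be told apart. The Hspe1 value comes from 1 assembled model of 4 exons and 455 bases, and the annotated Hspe1 transcript (267 bases) is listed at 0 in every library.

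The longer Hspd1 model took 82.6% to 86.4% of the Hspd1 sum in 7 of the 9 control and 12 h libraries, 19.2% in control replicate 3 and 20.1% in replicate 2 at 12 h after 5 Gy. At 24 h it took 10.3% to 13.4%. These 2 odd libraries were also the highest Hspd1 libraries of their groups. Because FPKM divides by length and the longer model is 1.43 times as long, reads assigned to it give a lower sum. Dividing the bases of both models by the annotated length instead, an alternative chosen after the values were seen, gave 73.2, 74.8 and 87.5 FPKM in controls, 62.3 to 67.3 FPKM at 12 h, 298, 302 and 237 FPKM at 24 h after 5 Gy and 652, 604 and 466 FPKM at 24 h after 20 Gy. The log2 changes against control at 24 h were then 1.81 and 2.84, and every call on Hspd1 was kept. On this scale the Hspd1 interaction was 1.08 (adjusted p = 0.0138), while over all alternatives tried its adjusted p ran from 0.0138 to 0.565.

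**Figure D4:**
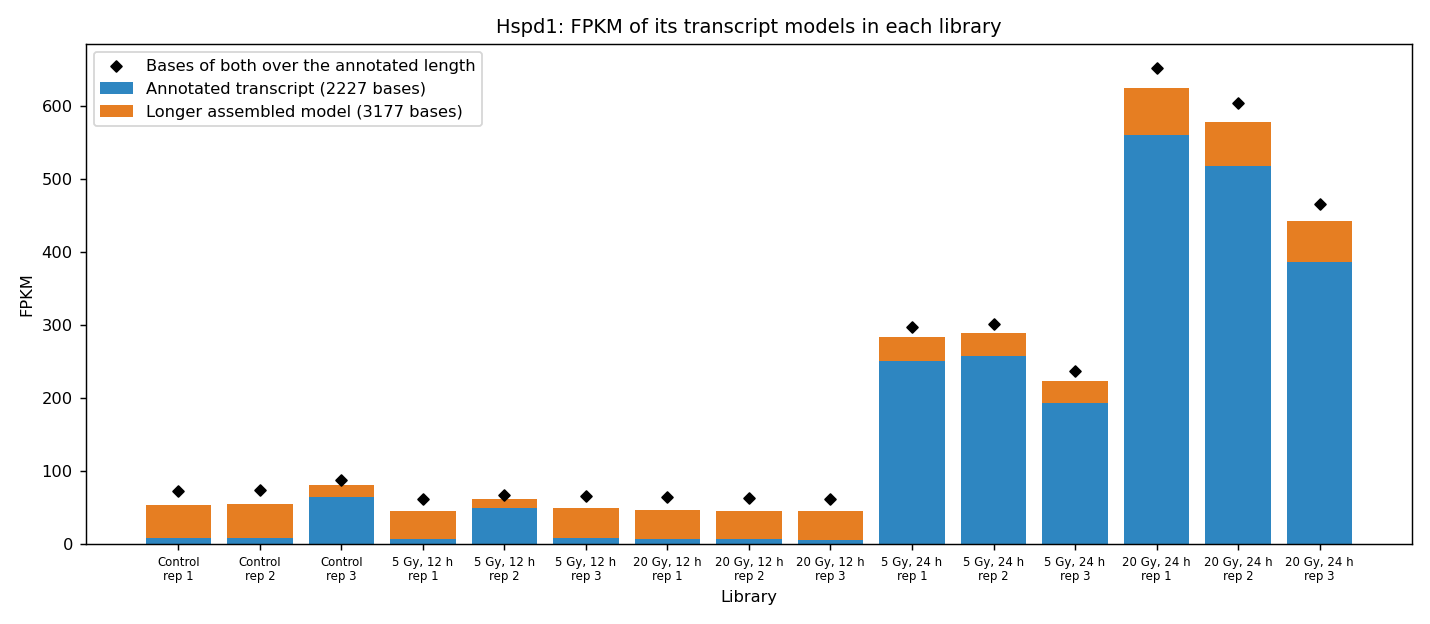
FPKM of the 2 Hspd1 transcript models in each library (stacked bars, from 0) and the bases of both divided by the annotated length (diamonds). The longer model makes up most of the bar in 7 of the 9 control and 12 h libraries and 10.3% to 13.4% of it at 24 h.

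The other 8 members lie on 7 chromosomes of Rnor_6.0. Tcp1 lies at chr1:48025663-48033396 (minus strand), Cct2 at chr7:60104800-60122805 (minus), Cct3 at chr2:187668796-187693610 (plus), Cct4 at chr14:107767392-107780270 (plus), Cct5 at chr2:84662443-84678790 (minus), Cct6a at chr12:30491416-30501860 (minus), Cct7 at chr4:117235023-117252265 (plus) and Cct8 at chr11:27130172-27141881 (minus). Cct4, Cct7 and Cct8 have 1 transcript each in the table, and Cct3 has 6, the most of the 10. By mean FPKM over the 15 libraries the members ranked from 296th of 17895 genes (Hspd1) to 1652nd (Tcp1). The aligned sequence behind a member was at least 0.225 megabases in any library (Hspe1, the shortest) and reached 10.9 megabases for Hspd1.

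The genes that work with these machines were compared as lists. Among all genes, 20.5% were called higher and 20.8% lower at 24 h after 5 Gy, and 17.0% and 23.3% after 20 Gy. Between the doses at 24 h, 0.956% were called higher after 20 Gy. At 12 h, 4.96% and 3.64% were called lower after 5 Gy and 20 Gy. Among 8 tested heat shock genes, 7 rose at 24 h after either dose and 7 were higher after 20 Gy than after 5 Gy at 24 h, with a median log2 change of 1.67 after 5 Gy and 3.47 after 20 Gy. Hspa1b, an inducible HSP70, went from 9.15 to 11.1 FPKM in controls to 1044 to 1607 FPKM at 24 h after 5 Gy and 4553 to 5612 FPKM at 24 h after 20 Gy, log2 changes of 6.87 (adjusted p = 6.49e-12) and 8.76 (adjusted p = 4.26e-13). Hsf1, the gene of the heat shock factor itself, did not pass, with 0.08 (adjusted p = 0.626) and -0.05 (adjusted p = 0.779). The Hspd1 change lies within the range of this list and the Hspe1 and TRiC changes lie under all 7 of its called members. The list was chosen with earlier results of these data known, so it is no independent yardstick and is given as description only. Hspa8, the constitutive HSP70, is listed at 0 in every library and was not tested.

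Of 15 tested genes of mitochondrial folding and quality control, 2 rose and 2 fell at 24 h after 5 Gy, and 2 rose and 1 fell after 20 Gy, with median log2 changes of 0.22 and -0.03. Hspa9, the mitochondrial HSP70 that hands proteins on to HSP60, was 53.0 to 57.2 FPKM in controls, 105 to 109 FPKM at 24 h after 5 Gy and 96.0 to 120 FPKM at 24 h after 20 Gy, a rise of 0.95 (adjusted p = 2.17e-06) and 0.91 (adjusted p = 3.63e-06). Clpp, the matrix protease, rose by 0.68 and 0.77. Grpel1, the nucleotide exchange factor of Hspa9, fell from 43.1 to 48.3 FPKM in controls to 25.6 to 27.0 and 24.5 to 26.6 FPKM, log2 changes of -0.76 (adjusted p = 5.72e-07) and -0.80 (adjusted p = 4.34e-07). Phb, the prohibitin, fell by 0.66 after 5 Gy. None of the 15 was called at 12 h or between the doses.

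Of 11 tested genes of mitochondrial protein import, Tomm70, an outer membrane receptor, rose by 0.74 and 0.61 and Pam16, part of the import motor, by 0.61 and 0.64 at 24 h after 5 Gy and 20 Gy, while Tomm22, another outer membrane receptor, fell by 1.01 and 0.90. The other 8 were not called, and the list medians were -0.13 and -0.18. Of 3 transcription factors tied to mitochondrial stress, Ddit3 (CHOP) rose by 0.85 at 12 h after 20 Gy (6.66 to 8.71 FPKM, adjusted p = 0.0376), and at 12 h after 5 Gy its difference was 0.65 (adjusted p = 0.0966). It rose from 3.25 to 4.97 FPKM in controls to 32.9 to 61.6 FPKM at 24 h after 5 Gy and 20.3 to 36.8 FPKM after 20 Gy, log2 changes of 3.27 (adjusted p = 2.99e-07) and 2.54 (adjusted p = 2.86e-06). Atf4 fell by 1.45 and 0.96 at 12 h after 5 Gy and 20 Gy, and Atf5 fell by 1.00 at 24 h after 20 Gy.

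On the cytosolic side, 9 genes of prefoldin, which delivers actin and tubulin chains to TRiC, and of the phosducin-like helpers of TRiC were tested. Of these, 2 fell at 24 h after 5 Gy (Pfdn4 by 0.74 and Pfdn6 by 0.65) and 1 after 20 Gy (Pfdn4 by 1.04), none rose, and the list medians were -0.40 and -0.37. The main substrates of TRiC, 10 actin and tubulin genes, moved far more. At 24 h 9 of the 10 fell after either dose, with a median log2 change of -2.35 after 5 Gy and -1.93 after 20 Gy, and 5 and 4 of them had fallen at 12 h. Actb, the main cytoplasmic actin, went from 3178 to 3856 FPKM in controls to 1517 to 1846 and 1792 to 2035 FPKM at 12 h and to 1101 to 1142 and 1042 to 1417 FPKM at 24 h after 5 Gy and 20 Gy. Tubg1, the gamma tubulin of the centrosome, was the 1 gene not called at 24 h (0.30, adjusted p = 0.619, and 0.99, adjusted p = 0.103). Among the 2 tested relatives of the chaperonins, Bbs10 rose by 1.11 and 1.06 at 12 h and fell by 1.46 at 24 h after either dose, and Mkks was not called.

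**Figure D5:**
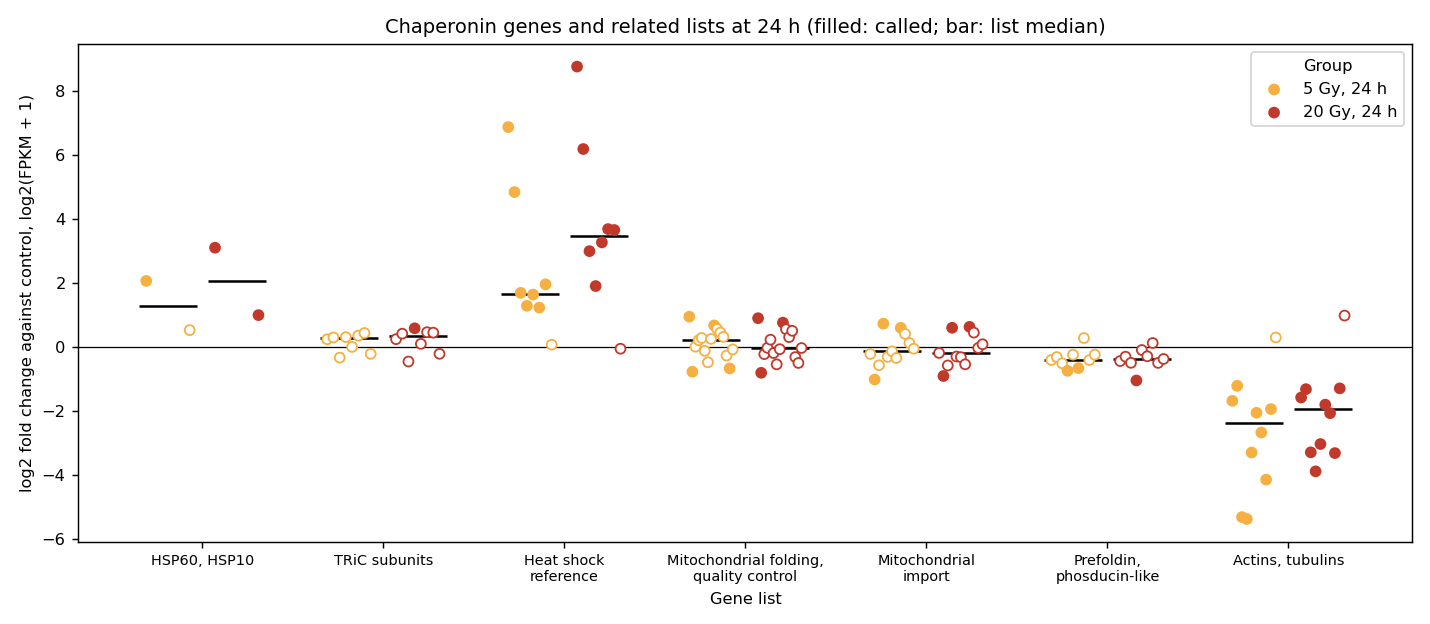
Log2 fold change against control at 24 h (vertical axis, log2(FPKM + 1) scale) of the chaperonin genes and of 5 related lists (horizontal axis), 5 Gy and 20 Gy side by side. Each point is a gene, filled where called, and bars are list medians. The heat shock genes have medians of 1.67 and 3.47, the TRiC genes 0.28 and 0.34, and the actins and tubulins -2.35 and -1.93.

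The genes whose profile over the 15 libraries was most like that of Hspd1, by the root mean square difference of centred log2 values among 8897 genes with a mean of at least 5 FPKM, were Hbegf (0.25), Dnajb1 (0.30), Hsp90aa1 (0.31), Bag3 (0.39) and Ube2j1 (0.39). Of these, Dnajb1, Hsp90aa1 and Bag3 encode heat shock proteins or their partners. Hspe1, the partner of Hspd1, ranked 788th (1.02) and the first TRiC gene, Tcp1, ranked 1490th (1.17). The values were not scaled, so a gene with the same direction and a smaller change ranks lower. Hspe1, like Hspd1, had every 24 h library above every control and 12 h library. For the mean TRiC profile the closest genes outside the 10 were Cops4 (0.07), Copb1 (0.07), Plrg1 (0.07), Lrrc42 (0.08) and Lta4h (0.08), and Hspe1 ranked 3197th and Hspd1 8655th of 8898.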

How the data were processed

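The authors aligned 150-base reads with HISAT2 to the Rnor_6.0 genome, built transcript models in StringTie 1.3.5 and deposited 1 table of FPKM per transcript. Tools and versions follow the study's methods and the submitters' processing notes, which also name edgeR and kallisto. Counts were not analysed here, so a count test was not used. FPKM was summed per gene over the rows that carry its name, or assembled rows whose locus holds only that name, and 4738 rows of other loci were left out. The depth of each library was worked out from the spacing of its lowest FPKM values. Genes with a mean FPKM of at least 0.5 (17895) were tested on log2(FPKM + 1) with limma 3.58.1 in R 4.3.3, fitting a mean for each group (10 residual degrees of freedom), with a trended variance prior and two-sided Benjamini-Hochberg adjusted p. The code was tested on simulated data. A call needed an adjusted p under 0.05 and a fold of at least 1.5.

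The text names the 10 chaperonin genes, members of the related lists and marker lists, and the 5 genes most like Hspd1 and like the TRiC mean. The members and lists were chosen with earlier results of these data known, which included a heat shock list. Promoter sequences are from RefSeq (GRCr8), and all 10 members matched. Alternatives were other pseudocounts, filters, scalings, fits, thresholds and transcripts summed, and leaving out each library. 3 of the endothelial, 5 of the pericyte, 8 of the fibroblast, 4 of the astrocyte, 2 of the neuron and 1 of the oligodendrocyte markers passed the filter, and no microglia marker did. At 24 h after 5 Gy and 20 Gy, 0 and 0 of the endothelial, 3 and 3 of the pericyte, 5 and 6 of the fibroblast and 1 and 1 of the astrocyte markers were called lower, and Aldh1l1, an astrocyte marker, was called higher. The neuron and oligodendrocyte markers were not called against control. From 12 h to 24 h at 5 Gy, 1 neuron marker was called higher, beside 17.1% of all genes.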

Additional observations from a re-analysis of the deposited data

Results flagged for a closer look

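At 20 Gy, the libraries of 3 chaperonin genes lay on opposite sides of the controls at the 2 times, with all 12 h libraries below all controls and all 24 h libraries above them. How many of all genes show this pattern was not counted, so it is not described as particular to these genes. The log2 difference between the times, tested with limma, was 3.52 for Hspd1 (adjusted p = 9.85e-09), 1.17 for Hspe1 (adjusted p = 1.4e-06) and 0.63 for Cct6a (adjusted p = 1.76e-05). The 12 h differences from control did not pass the test (adjusted p = 0.135, 0.318 and 0.17). The Cct6a value changes sign when its main annotated transcript is taken alone, to -0.23.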

How the results depend on the processing

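Of 1851 values of single genes under the alternatives, 1780 kept the side of the call, 49 were newly called, 15 lost the call and 7 reversed. The 1780 include 73 values that changed sign with no adjusted p under 0.05, all at most 0.16 in size as reported. Of these, 2 were over 0.5 in size under the alternative, both Cct2 with annotated transcripts only, at 1.09 between the doses at 12 h and -0.95 for the change over time between the doses. The annotated Cct2 transcript was at 1.94 FPKM in replicate 1 at 12 h after 5 Gy and at 28.9 to 48.7 FPKM in the other libraries. All 7 reversals are of Cct6a. With its main transcript alone, its log2 changes were -0.40 and -0.38 against control at 24 h after 5 Gy and 20 Gy, and -0.29 and -0.23 from 12 h to 24 h. With annotated transcripts only they were -0.14 and -0.12 against control and -0.0168 from 12 h to 24 h at 5 Gy.

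The main moves in the number of members called were as follows. With an adjusted p alone it was 1 and 2 at 12 h after 5 Gy and 20 Gy, 7 and 8 at 24 h against control (6 and 7 of them higher), 6 and 8 from 12 h to 24 h, all higher, and 2 between the doses at 24 h. By that rule 28.8% and 24.7% of all genes were higher, and 30.6% and 34.1% lower, at 24 h against control, and 24.9% and 21.5% were higher from 12 h to 24 h. The members called at 12 h were lower, beside 8.37% and 7.54% of all genes. Those between the doses at 24 h were higher, beside 1.35% of all genes. With a fold of at least 2 it was 1 and 2 from 12 h to 24 h (8.07% and 6.78% of all genes called higher). By that limit Cct4 lost its call at 24 h after 20 Gy. With quantile normalization it was 4 and 6 at 24 h against control and 4 and 7 from 12 h to 24 h (17.5% and 17.0% of all genes called higher). With libraries rescaled to the same sum (TPM) it was 3 and 3 at 24 h against control (26.7% and 20.9%) and 5 and 6 from 12 h to 24 h (21.6% and 16.5%). From 12 h to 24 h at 20 Gy it was 6 with a common median and 4 with length-weighted FPKM, where Cct6a lost its call (0.50). With annotated transcripts only, 9 members were tested. The count was then 3 from 12 h to 24 h at 20 Gy, beside 9.54% of all genes called higher. Between the doses at 24 h it was 0, beside 0.504% higher and 0.486% lower. With the main transcript it was 2 at 24 h after 5 Gy, 1 higher and 1 lower, beside 15.9% and 18.5% of all genes. Between the doses it was 0, beside 0.668% higher and 0.894% lower. In both settings Cct3 was called lower at 24 h after 20 Gy (-0.62 and -0.68), beside 18.6% and 20.4% of all genes. In a fit of only the 2 groups the count was 0 between the doses at 24 h. Leaving out each library gave 1 to 2 at 24 h after 5 Gy, 2 to 3 at 24 h after 20 Gy and 3 to 6 from 12 h to 24 h at 20 Gy. Shares over all genes are not given for the length-weighted fit, the fit of only the 2 groups and the fits that left out a library. The causes were not tested. The median change over all genes at 24 h after 20 Gy was -0.14 as deposited, -0.03 with quantile normalization, -0.08 as TPM and -0.07 with libraries shifted to a common median.

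The ratio of the mitochondrial to the TRiC genes with annotated transcripts only, which leaves Hspe1 at 0, was 0.184 in controls, 0.170 and 0.0534 at 12 h after 5 Gy and 20 Gy and 1.54 and 3.02 at 24 h. From mean log2 values it was 1.12 and 1.01 at 12 h, and weighted by transcript length 1.12 in controls and 1.13 and 1.06 at 12 h.

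With the replicate number as a block, the counts of members called were 1 and 3 at 24 h against control, 2 and 5 from 12 h to 24 h and 1 between the doses at 24 h, as without it. Shares over all genes are not given for the block fit. Deviations from group means correlated at -0.177 to 0.232 between libraries with the same number (30 pairs) and at -0.209 to 0.203 between others (60 pairs), so the numbers were not taken to pair the libraries. FPKM carries no counts, so no counting interval is given, and 3 libraries per group limit the precision.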
